A study of Homo sapiens with 12 samples.

Results

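The claudins and their partners at the tight junction were followed across the 12 libraries of the series: *CLDN1*, *CLDN2*, *CLDN3*, *CLDN4*, *CLDN7*, *CLDN12*, *OCLN*, *TJP1* and *F11R*, 9 of the 60612 named gene rows. They were proposed because *CLDN2* had been seen to rise strongly with *RB1* intact. *CLDN2* was thus selected on its own values, and its values in sgControl cells are given as a description, with no test. RNA was sequenced from ZR-75-1, an oestrogen receptor-positive human breast cancer cell line. One set of cells had received Cas9 with a non-targeting guide RNA (sgControl), the other Cas9 with a guide against *RB1*, the gene of the retinoblastoma protein Rb (*RB1* knockout). Both were kept for 5 days in abemaciclib (500 nM), which blocks CDK4 and CDK6 and so keeps Rb unphosphorylated, or in an equal volume of DMSO, with 3 libraries in each of the 4 groups. By the study's general methods, *RB1*-knockout lines were grown from sorted single cells, so a property of the clone and the loss of *RB1* cannot be told apart. The study calls its RNA-seq replicates biological. The labels do not say what separated them, so p-values measure the spread between these libraries.

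Tight junctions seal the space between neighbouring epithelial cells and decide which ions and solutes pass through it. Claudins are small proteins that cross the membrane 4 times and polymerize into the strands of the junction. Most of them tighten the seal, whereas claudin-2 forms a pore for small cations and water and is typical of leaky epithelia such as the proximal tubule of the kidney. Occludin (*OCLN*) and junctional adhesion molecule A (*F11R*) are other membrane proteins of the junction, and ZO-1 (*TJP1*) is the scaffold that ties them to actin. In luminal breast epithelium claudin-3, claudin-4 and claudin-7 are the usual partners.

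Total counts ran from 39907318 to 81636393 per library, and no replicates agreed within sampling noise. Among the sgControl DMSO libraries replicate 1 stood apart, with a chi-square per gene of 50.2 against replicate 2 and 105.1 against replicate 3. Replicates 2 and 3 had 18.1 between them, and replicates of the other groups 3.49 to 17.9. *RB1*, the targeted gene, had 29 to 63 counts in the 6 knockout libraries and at least 2090 in each sgControl library. All 8 markers of luminal epithelium were high, the lowest with a mean normalized count of 9777.1. Of 16 markers of basal epithelium, mesenchyme, endothelium and immune cells, 11 had a mean under 10. The other 5 were *FN1*, *CDH2*, *COL1A1*, *PDGFRB* and *VWF*, and the normalized counts summed over the mesenchymal markers were 3222.8–3791.7 in DMSO and 4560.5–4876.0 in abemaciclib for sgControl, and 3004.6–3201.7 and 4555.2–4794.9 for the knockout. *VIM*, *COL1A2*, *PECAM1*, *CDH5*, *PTPRC* and the keratins *KRT5* and *KRT14* stayed near 0. Their part in the results was not tested. In such bulk libraries fewer cells of a type and less RNA per cell cannot be told apart.

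*CLDN2* lies at chrX:106900164-106930861 on the plus strand of GRCh38 (GENCODE 44), with 3 annotated transcripts. RefSeq gives 2 promoter windows for it, each from 250 bases before a transcription start to 50 after it. Both are poor in CpG, in contrast to the window of *CLDN1*, a claudin that rose in both genotypes. Each of the 3 stretches below is the longest run within the 250 bases before the start that overlaps no annotated exon, 5′ to 3′. They are shown because, of the 9 genes, *CLDN2* and *CLDN1* had the largest log2 fold changes in sgControl cells. Capitals mark every match to the motifs searched.
CLDN2 first start, chrX:106899914-106900062, plus strand: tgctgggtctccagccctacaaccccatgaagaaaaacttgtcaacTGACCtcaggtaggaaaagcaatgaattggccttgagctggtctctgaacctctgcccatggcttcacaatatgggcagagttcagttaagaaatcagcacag
CLDN2 second start, chrX:106918110-106918359, plus strand: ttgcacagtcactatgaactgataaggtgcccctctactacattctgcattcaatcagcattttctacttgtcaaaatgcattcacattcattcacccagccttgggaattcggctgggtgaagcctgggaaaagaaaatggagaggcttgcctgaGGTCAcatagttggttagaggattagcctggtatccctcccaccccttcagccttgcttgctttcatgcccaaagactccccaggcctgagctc
CLDN1, chr3:190322447-190322540, minus strand: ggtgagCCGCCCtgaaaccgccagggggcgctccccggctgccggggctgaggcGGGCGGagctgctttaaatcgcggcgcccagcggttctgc

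Over the full windows of 300 bases the GC content of *CLDN2* was 47.3% and 51.3%, with 1 and 2 CpG, against 67.0% and 31 CpG for *CLDN1*. The median over 35116 windows of 27305 genes was 58.7% and 14 CpG, and 25.9% of windows had a GC content at or below the lower *CLDN2* value. Each *CLDN2* window held 1 match to the oestrogen receptor half-site GGTCA on either strand, as 37.4% of all windows did. The *CLDN1* window held 2 matches to the GC box GGGCGG, found in 45.0% of windows, and the *CLDN2* windows none. The E2F sites TTTCCCGC and TTTGGCGC (2.27% of windows hold either) were found in no window of the 8 members that have one, *F11R* being the member without. The *CLDN2* windows also held no CACCTG, an E-box (20.6%), no TGACTCA, an AP-1 site (4.95%), and no TATAAA (11.5%). Each motif was sought on both strands. Counts per gene do not say which start was in use.

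*CLDN2* went from low to abundant with abemaciclib in sgControl cells and was low in *RB1*-knockout cells in both conditions. Here and in what follows changes are log2 fold changes ± SE from 1 DESeq2 model of all libraries, and a change is called where its p, adjusted over all genes tested, is under 0.05. Its normalized count, the count divided by the library's size factor, was 59.6, 92.5 and 60.5 in sgControl cells in DMSO. The sgControl libraries in abemaciclib held 10332.6, 9235.8 and 10829.2. The 3 treated libraries lay far above the 3 untreated ones, and the difference was a fold of 144.2, or 7.17 ± 0.13 (SE) on the log2 scale, the value for which the gene was chosen.

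In *RB1*-knockout cells *CLDN2* had 13.7, 8.8 and 11.4 normalized counts in DMSO and 12.5, 12.6 and 17.1 in abemaciclib, from 8 to 17 raw counts per library. The groups overlapped. The response there was 0.35 ± 0.37 with an adjusted p of 0.536 (DESeq2), and its 95% interval ran from -0.38 to 1.07. The stated reason for choosing the gene names only the rise with *RB1* intact. Earlier results of these data were known by then, so this test is not independent of the choice. In DMSO the knockout libraries lay below the sgControl ones without overlap, with a difference of -2.66 ± 0.30. In abemaciclib the difference between genotypes was -9.48 ± 0.25, and the difference between the responses was -6.82 ± 0.39. These 3 values are given without a test, since each uses sgControl libraries on which *CLDN2* was chosen.

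Reads near *CLDN2* also changed. *MORC4*, a chromatin-associated ATPase gene, spans *CLDN2* on the opposite strand. For sgControl its mean normalized count was 5578.0 in DMSO and 13176.2 in abemaciclib (1.24, adjusted p = 3.21e-195), and for the knockout 4000.4 and 3629.8 (-0.14, adjusted p = 0.00787). Its exons shared 0 bases with those of *CLDN2*. *RIPPLY1*, a gene of a transcriptional repressor on the same opposite strand, shares 341 exon bases with *CLDN2*, or 9.99% of its exons, and its mean was 0.8 and 104.0 in sgControl cells against 1.2 and 1.8 in knockout cells. Of the nearest expressed genes outside the locus, *TBC1D8B* went from 874.7 to 1130.0 in sgControl cells (0.37, adjusted p = 0.00427) and *RBM41* from 674.3 to 832.5 (0.30, adjusted p = 0.0755). Their responses in knockout cells were 0.09 (adjusted p = 0.636) for *TBC1D8B* and 0.16 (adjusted p = 0.449) for *RBM41*. Whether the authors counted by strand is not given in the sources used here, and the part of shared reads in these values was not tested.

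**Figure D1:**
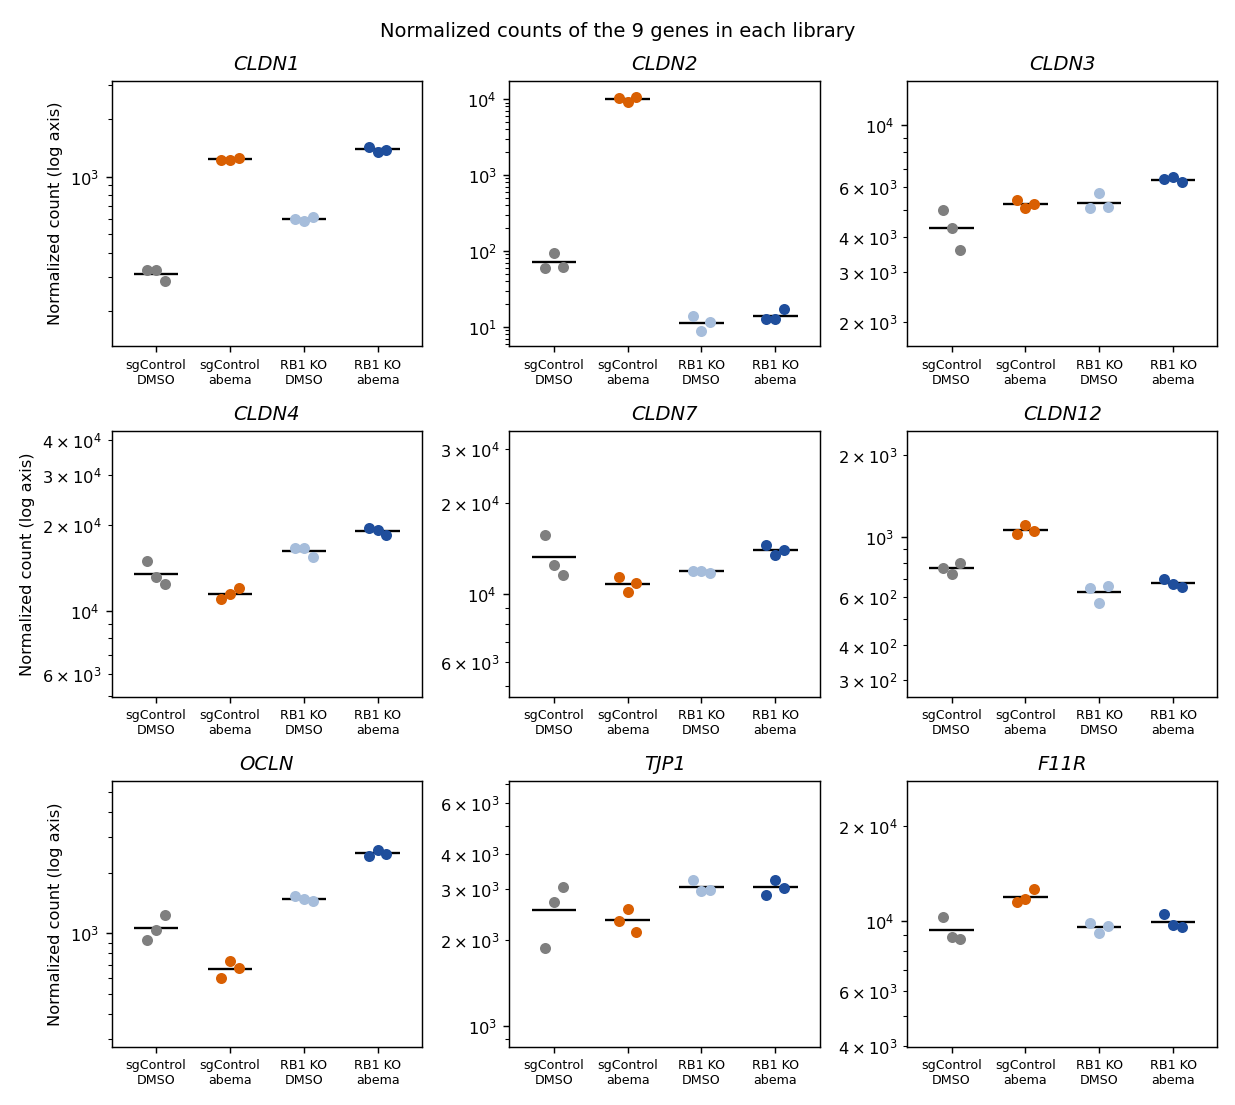
Normalized counts (log axis, its range set for each gene) of the 9 genes in the 3 libraries of each group, with the group mean as a bar; abema is abemaciclib and KO is knockout. *CLDN2* reaches 9235.8 to 10829.2 in sgControl cells in abemaciclib and lies between 8.8 and 92.5 in the other 9 libraries, while *OCLN* falls in sgControl cells and rises in knockout cells.

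*CLDN1* (chr3:190305707-190322446, minus strand), a barrier-forming claudin, rose with abemaciclib in both genotypes, and by more with *RB1* intact. It had 325.8, 324.3 and 286.6 normalized counts in the sgControl DMSO libraries and 1223.1, 1225.6 and 1252.7 in abemaciclib. In knockout cells it had 602.5, 586.1 and 613.9 in DMSO and 1430.3, 1345.6 and 1377.8 in abemaciclib. None of the 4 groups overlapped another. The response was 1.99 ± 0.08 in sgControl cells (3.97-fold, adjusted p = 4.9e-149) and 1.20 ± 0.07 in knockout cells (2.30-fold, adjusted p = 6.54e-58). The knockout response was smaller, with a difference of -0.79 ± 0.11 (adjusted p = 9.93e-13). In DMSO the gene was higher in knockout cells, by 0.95 ± 0.08 (adjusted p = 1.27e-29). In abemaciclib the genotypes came close, at 0.17 ± 0.07 (adjusted p = 0.0261), a call lost when the replicate number was a block (adjusted p = 0.0588) and in 5 of the 12 fits without a library, those without any 1 of the 3 sgControl abemaciclib libraries or without knockout abemaciclib replicate 1 or 3.

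*OCLN* (chr5:69492292-69558104, plus strand), the gene of occludin, moved in opposite directions in the 2 genotypes. Its normalized counts in sgControl cells were 924.4, 1040.0 and 1231.6 in DMSO and 603.5, 729.7 and 671.3 in abemaciclib. In *RB1*-knockout cells they were 1531.5, 1477.5 and 1454.0 in DMSO and 2430.3, 2577.5 and 2484.4 in abemaciclib. No group overlapped another. *OCLN* fell by 0.67 ± 0.10 in sgControl cells (adjusted p = 1.32e-10) and rose by 0.75 ± 0.10 in knockout cells (adjusted p = 8.29e-13). The difference between these responses was 1.42 ± 0.14 (adjusted p = 9.49e-23). *OCLN* was higher in knockout cells by 0.48 ± 0.10 in DMSO (adjusted p = 1.08e-05) and by 1.90 ± 0.10 in abemaciclib (adjusted p = 3.97e-79), where knockout cells held 3.73 times the sgControl level. A pseudogene copy, *OCLNP1*, had 1 to 11 counts in each library.

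The pair of barrier claudins *CLDN4* and *CLDN7* showed the same opposite signs with smaller sizes. *CLDN4* (chr7:73799542-73832690, plus strand) had 15011.6, 13124.4 and 12472.5 normalized counts in the sgControl DMSO libraries and 10978.2, 11476.3 and 12033.4 in abemaciclib. Knockout cells held 16719.8, 16609.1 and 15477.6 in DMSO and 19523.7, 19234.4 and 18522.3 in abemaciclib. The 4 groups did not overlap. *CLDN4* fell by 0.24 ± 0.07 (adjusted p = 0.00224) in sgControl cells and rose in knockout cells by 0.23 ± 0.07 (adjusted p = 0.00548, lost without knockout DMSO replicate 3 at 0.0567). With a library left out the sgControl response ranged from -0.29 to -0.16, and its call was kept (adjusted p up to 0.0283). The responses differed by 0.47 ± 0.10 (adjusted p = 1.49e-05). Knockout cells had more *CLDN4* in DMSO, by 0.27 ± 0.07 (adjusted p = 0.000852), and in abemaciclib, by 0.73 ± 0.07 (adjusted p = 3.01e-24).

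*CLDN7* (chr17:7259903-7263983, minus strand) had 15616.7, 12533.9 and 11566.6 normalized counts in the sgControl DMSO libraries and 11426.5, 10162.1 and 10894.4 in abemaciclib. The groups came close without overlap. The knockout libraries held 11947.6, 11976.2 and 11759.1 in DMSO and 14547.7, 13437.1 and 13955.0 in abemaciclib, also without overlap. *CLDN7* fell by 0.29 ± 0.09 in sgControl cells (adjusted p = 0.00424) and rose by 0.23 ± 0.09 in knockout cells (adjusted p = 0.041), with a difference between responses of 0.52 ± 0.13 (adjusted p = 0.000257). With a library left out the sgControl response ranged from -0.38 to -0.16, and its call was kept (adjusted p up to 0.0411). The knockout call was lost without any 1 of the 6 knockout libraries (adjusted p up to 0.157) and without independent filtering (0.071). The genotypes did not pass the test in DMSO (-0.15 ± 0.09, adjusted p = 0.187), but without sgControl DMSO replicate 3 they did (-0.24, adjusted p = 0.0129). In abemaciclib knockout cells had more, by 0.37 ± 0.09 (adjusted p = 0.000178). *ELP5*, on the opposite strand, shares 38 exon bases with *CLDN7*.

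*CLDN3* (chr7:73768997-73770270, minus strand), another barrier claudin and a neighbour of *CLDN4*, rose slightly in both genotypes. It had 4972.8, 4298.4 and 3592.0 normalized counts in the sgControl DMSO libraries and 5429.3, 5087.7 and 5218.6 in abemaciclib. The counts in knockout cells were 5059.1, 5713.8 and 5131.5 in DMSO and 6435.8, 6514.3 and 6250.8 in abemaciclib. Treated and untreated groups did not overlap in either genotype, though the sgControl abemaciclib and knockout DMSO libraries did. *CLDN3* rose by 0.29 ± 0.10 in sgControl cells (adjusted p = 0.00589) and by 0.27 ± 0.10 in knockout cells (adjusted p = 0.0195). The responses differed by -0.02 ± 0.14 (adjusted p = 0.932, 95% interval -0.29 to 0.25). Knockout cells had more *CLDN3* in DMSO, by 0.31 ± 0.10 (adjusted p = 0.00551, lost without knockout DMSO replicate 2 at 0.071), and in abemaciclib, by 0.29 ± 0.10 (adjusted p = 0.00602).

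*CLDN12* and *F11R* rose in sgControl cells and did not pass the test in knockout cells. *CLDN12* (chr7:90383721-90513402, plus strand), a claudin that lacks the usual PDZ-binding end, had 771.7, 733.3 and 803.2 normalized counts in the sgControl DMSO libraries and 1022.7, 1107.9 and 1050.9 in abemaciclib. In knockout cells it had 650.3, 571.8 and 662.8 in DMSO and 703.3, 671.8 and 657.7 in abemaciclib. The groups were apart in sgControl cells and overlapped in knockout cells. The responses were 0.46 ± 0.08 (adjusted p = 1.09e-08) and 0.11 ± 0.08 (adjusted p = 0.357), differing by -0.35 ± 0.11 (adjusted p = 0.00636). That difference was -0.22 (adjusted p = 0.206) with total-count scaling. Knockout cells had less *CLDN12*, with differences of -0.30 ± 0.08 in DMSO (adjusted p = 0.00144) and of -0.65 ± 0.08 in abemaciclib (adjusted p = 2.64e-15). *GTPBP10* and *CDK14* lie on the same strand and share 347 and 201 exon bases with it.

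*F11R* (chr1:160995211-161021343, minus strand) had 10310.6, 8917.6 and 8771.5 normalized counts in the sgControl DMSO libraries and 11522.4, 11728.7 and 12614.8 in abemaciclib. The knockout libraries had 9872.3, 9165.6 and 9648.1 in DMSO and 10483.3, 9732.0 and 9568.3 in abemaciclib. Here too only the sgControl groups were apart. *F11R* rose by 0.36 ± 0.07 in sgControl cells (adjusted p = 1.92e-06), against 0.05 ± 0.07 in knockout cells (adjusted p = 0.636). The responses differed by -0.30 ± 0.10 (adjusted p = 0.00801), and by -0.17 (adjusted p = 0.13) with total-count scaling. *F11R* was lower in knockout cells in abemaciclib, with a difference of -0.27 ± 0.07 (adjusted p = 0.000431), with 0.04 ± 0.07 in DMSO (adjusted p = 0.75).

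*TJP1* (chr15:29699367-29968915, minus strand), the scaffold gene, passed neither response test. It had 1867.4, 2715.5 and 3068.5 normalized counts in the sgControl DMSO libraries and 2321.3, 2568.2 and 2138.0 in abemaciclib. The treated libraries lay inside the range of the untreated ones, of which replicate 1 was the lowest. In knockout cells it had 3228.4, 2969.3 and 2988.7 in DMSO and 2865.1, 3245.0 and 3028.0 in abemaciclib, which overlapped. The sgControl response was -0.12 ± 0.14 (adjusted p = 0.485, 95% interval -0.39 to 0.14). It was -0.31 (adjusted p = 0.000415) without sgControl DMSO replicate 1 and 0.030 (adjusted p = 0.875) without replicate 3. The knockout response was -0.0074 ± 0.14 (adjusted p = 0.979), and the responses differed by 0.12 ± 0.19 (adjusted p = 0.685), or by 0.30 (adjusted p = 0.0149) without sgControl DMSO replicate 1. *TJP1* was higher in knockout than in sgControl cells in abemaciclib, by 0.38 ± 0.14 (adjusted p = 0.0108), a call lost without sgControl abemaciclib replicate 3 (0.0769) or knockout abemaciclib replicate 2 (0.0607). In DMSO it was 0.26 ± 0.14 (adjusted p = 0.117), and 0.42 (adjusted p = 0.0034) without sgControl DMSO replicate 3.

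**Figure D2:**
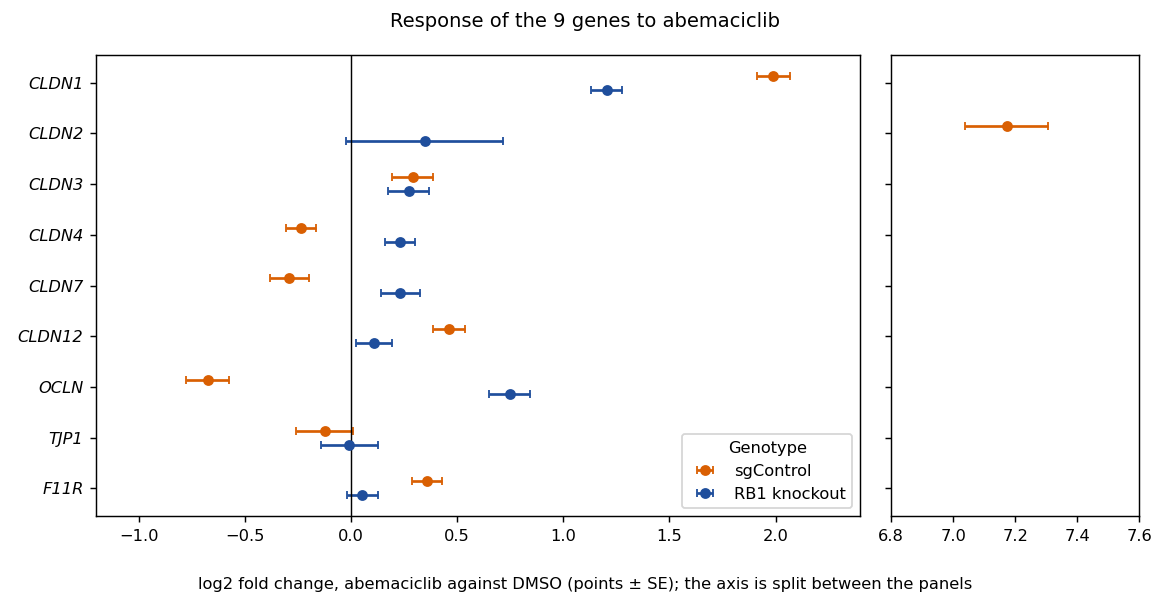
Log2 fold change of each gene, abemaciclib against DMSO, with its SE, in sgControl (orange) and *RB1*-knockout cells (blue); the axis is split so that *CLDN2* at 7.17, which chose the genes, can be drawn. *OCLN*, *CLDN4* and *CLDN7* lie below 0 in sgControl cells and above 0 in knockout cells, and *CLDN1* lies above 0 in both.

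Counted over the genes, the response in sgControl cells was called in 7 of the 8 members other than *CLDN2*, 4 higher and 3 lower. Over all 22723 genes tested there, 49.8% were called, 25.0% higher and 24.8% lower. The median log2 fold change of the 8 was 0.08, beside 0.01 for all genes. Without sgControl DMSO replicate 1 all 8 were called, *TJP1* being added. In *RB1*-knockout cells 5 of the 9 were called, all higher, where 30.0% of all genes were called, 14.9% higher and 15.1% lower, and the median was 0.23 beside 0.02. That count rested on small changes: it was 2 without knockout DMSO replicate 3 and 3 without knockout DMSO replicate 1 or knockout abemaciclib replicate 1 or 2. *CLDN1* and *OCLN* passed in every such fit, while *CLDN7* was lost in 6 of the 12, *CLDN3* in 4 and *CLDN4* in 1.

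The responses differed between genotypes in 6 of the 8, 3 with a higher and 3 with a lower knockout response, where 41.4% of genes were called, 21.1% higher and 20.3% lower. With total-count scaling, which moved the median of all genes by 0.14, these were 3 and 1. Knockout against sgControl in DMSO was called in 5 of the 8, with 4 higher (*CLDN1*, *CLDN3*, *CLDN4* and *OCLN*) and 1 lower (*CLDN12*). The background was 37.4%, 19.2% higher and 18.2% lower. Without sgControl DMSO replicate 3 *CLDN7* and *TJP1* were called as well. In abemaciclib all 8 members other than *CLDN2* were called, 6 higher and 2 lower (*CLDN12* and *F11R*), against 55.9% of all genes, 28.5% higher and 27.4% lower. The comparisons with sgControl DMSO or abemaciclib libraries in common are not independent of each other.

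To compare the genes with each other, counts were taken per kilobase of merged exons and divided by the library total (shown as CPM per kilobase). The labels name a whole-transcript kit and the study's general methods a 3′ mRNA kit; with the latter, counts would not grow with length and this order would not hold. In sgControl cells in DMSO *CLDN7* stood first at 97.0 ± 9.85 (SD, n = 3). *CLDN3* (61.5 ± 6.35) and *CLDN4* (52.7 ± 2.16) followed and overlapped, then *F11R* (33.8 ± 1.40). The rest were far lower, *TJP1* at 4.18 ± 1.23, *CLDN12* at 2.11 ± 0.19, *OCLN* at 1.75 ± 0.36 and *CLDN1* at 1.58 ± 0.06, with overlap between *CLDN12* and *OCLN* and between *OCLN* and *CLDN1*. *CLDN2* was last at 0.38 ± 0.10.

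In sgControl cells in abemaciclib *CLDN2* stood in place 3 of 9 by this level, at 49.8 ± 3.90. Only *CLDN7* (72.8 ± 2.58) and *CLDN3* (69.0 ± 0.68) were above it, and *CLDN4* (41.1 ± 2.98) and *F11R* (39.6 ± 2.80), which overlapped, came next. *CLDN1* reached 5.70 ± 0.22, above *TJP1* (3.47 ± 0.36) and *CLDN12* (2.65 ± 0.18), and *OCLN* was last at 1.00 ± 0.12. In *RB1*-knockout cells the order of the first 4 was *CLDN7*, *CLDN3*, *CLDN4* and *F11R* in both conditions. They stood at 86.4 ± 1.49, 75.3 ± 3.51, 62.7 ± 2.52 and 34.2 ± 1.96 in DMSO. In abemaciclib they stood at 101.8 ± 2.46, 91.2 ± 2.35, 73.7 ± 1.46 and 35.6 ± 1.10. *CLDN2* was last in both, at 0.060 ± 0.014 and 0.075 ± 0.015. Between them lay *TJP1* (4.90 ± 0.30 and 4.89 ± 0.38), *CLDN1* (3.00 ± 0.13 and 6.93 ± 0.10), *OCLN* (2.39 ± 0.09 and 4.03 ± 0.19) and *CLDN12* (1.70 ± 0.17 and 1.83 ± 0.03), and no neighbours overlapped in the knockout groups.

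As a share of the summed level per length of all 24 claudin genes, *CLDN2* held 0.18% ± 0.05 (SD, n = 3) in the sgControl DMSO libraries and 20.4% ± 0.93 in abemaciclib. The knockout libraries gave it 0.026% ± 0.006 and 0.027% ± 0.005. The share of *CLDN7* went from 44.3% ± 1.00 to 29.9% ± 0.86 in sgControl cells and that of *CLDN4* from 24.1% ± 1.07 to 16.8% ± 0.99. *CLDN3* stayed at 28.0% ± 1.14 and 28.3% ± 0.68. In knockout cells *CLDN7* had 36.9% ± 0.79 and 36.1% ± 1.05, *CLDN4* 26.8% ± 0.79 and 26.1% ± 0.32, and *CLDN3* 32.2% ± 1.38 and 32.3% ± 0.67. The share of *CLDN1* was 0.72% ± 0.06 and 2.34% ± 0.08 in sgControl cells and 1.28% ± 0.07 and 2.45% ± 0.05 in knockout cells.

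The summed level itself was 239.0, 213.5 and 204.4 in the sgControl DMSO libraries and 240.4, 237.9 and 253.2 in abemaciclib, which overlapped. Without *CLDN2* it was 238.7, 213.0 and 204.1 against 191.4, 191.5 and 199.2, the treated libraries all lower. In knockout cells the sum was 236.0, 236.0 and 230.4 in DMSO and 282.9, 284.2 and 280.1 in abemaciclib, the treated libraries all higher. These sums hold *CLDN2*, the gene chosen for its rise, and carry no test. All of them were divided by library totals. Compared with the DESeq2 size factors, that scaling moved the median gene by -0.13 in the sgControl response. The sums were not recomputed with size factors, and the part of the scaling in the lower treated sums was not tested.

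**Figure D3:**
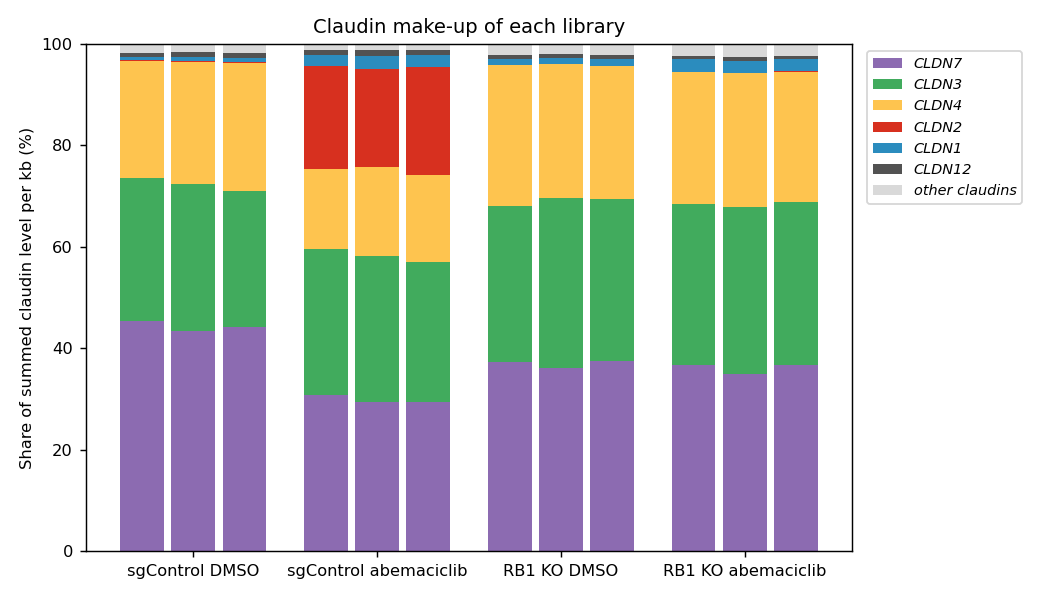
Share of each claudin in the summed claudin level per kilobase (%), with a bar for each of the 12 libraries in the order of replicates 1 to 3 within a group. *CLDN2* takes 19.5% to 21.3% in the 3 sgControl abemaciclib libraries and at most 0.23% in each of the others.

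The wider junction was described with 55 other tight junction genes, listed by family and not by their changes. Of the 18 other claudins, 5 had no count in any library. In sgControl cells 42 of the 55 could be tested and 33 were called, 20 higher and 13 lower, where 49.8% of all genes were called, and with total-count scaling 15 were higher and 17 lower. In knockout cells 40 were tested and 15 called, 11 higher and 4 lower, where 30.0% of all genes were called. Their median fold change (log2) was 0.07 with *RB1* intact beside 0.01 for all genes, and -0.01 in knockout cells beside 0.02. The responses differed in 25 of 41, with 11 higher and 14 lower in knockout cells, or 14 and 11 with total-count scaling, beside 41.4% of all genes. In DMSO knockout cells had 18 of 40 higher and 4 lower (37.4% of all genes were called), and in abemaciclib 17 of 41 higher and 14 lower (55.9%).

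Among scaffold genes, *CGNL1*, encoding the cingulin relative paracingulin, had the largest log2 fold change of those that rose. Its mean normalized count went from 176.4 to 4802.8 in sgControl cells (4.77 on the log2 scale, 27.2-fold) and was 131.6 and 103.4 in knockout cells (-0.36, adjusted p = 0.068), a difference of -5.12. The knockout fall of *CGNL1* was called in 3 of the 12 fits without a library (lowest adjusted p = 0.0342). *CGN*, encoding cingulin itself, fell in both genotypes, from 472.6 to 157.4 (-1.59) and from 715.9 to 486.3 (-0.56). *TJP3*, the gene of ZO-3, rose from 6077.5 to 13877.3 (1.19) in sgControl cells against 0.10 in knockout cells (adjusted p = 0.23). *AMOTL1*, an angiomotin-like scaffold, fell from 5165.7 to 1536.0 (-1.75) and from 5303.5 to 3520.9 (-0.59). With *RB1* intact 8 of the 17 scaffold and signalling genes rose and 6 fell, where 25.0% of all genes rose and 24.8% fell. Without *RB1* 0 rose and 3 fell, where 14.9% and 15.1% of all genes did.

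Among membrane genes, *ILDR2*, a relative of the tricellular junction proteins, fell from 345.0 to 40.7 in sgControl cells (-3.09, adjusted p = 1.8e-68) and rose from 472.4 to 787.1 in knockout cells (0.74, adjusted p = 5.8e-08). *CLDN23*, a barrier claudin, went from 275.0 to 93.3 (-1.56) and from 438.6 to 618.4 (0.50, adjusted p = 0.0015), the signs seen in *OCLN*, *CLDN4* and *CLDN7*. Of the other claudins, 6 were tested in sgControl cells: 4 were called higher and only *CLDN23* lower, beside 25.0% and 24.8% of all genes. The 4 had low counts. *CLDN6* went from a mean of 21.0 to 62.3, *CLDN9* from 19.8 to 35.3, *CLDN15* from 80.3 to 142.3 and *CLDN16* from 0 to 6.0. In knockout cells 5 were tested, with 2 called higher and 0 lower, beside 14.9% and 15.1%. The membrane genes counted below do not include claudins. *ESAM*, an adhesion molecule known from endothelium, fell from 534.2 to 167.8 (-1.66), against -0.19 in knockout cells (adjusted p = 0.24). *MARVELD3*, an occludin relative, rose in both, from 1974.9 to 5167.6 (1.39) and from 1981.7 to 2328.8 (0.23, adjusted p = 0.00021). With *RB1* intact 5 of the 11 membrane genes tested rose and 3 fell, beside 25.0% and 24.8% of all genes. Without *RB1* 8 of 10 rose and 0 fell, beside 14.9% and 15.1%.

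Among polarity genes, *PARD6B* rose from 387.0 to 808.7 in sgControl cells (1.06), whereas its relative *PARD6G* fell from 1059.5 to 449.2 (-1.23). Both are adaptors of the PAR complex. In knockout cells neither passed, with -0.01 (adjusted p = 0.97) and 0.08 (adjusted p = 0.41). Between the genotypes in abemaciclib the named differences were higher in knockout cells for *ILDR2* (4.27), *CLDN23* (2.73), *ESAM* (1.82), *CGN* (1.63) and *PARD6G* (1.46). They were lower for *CGNL1* (-5.54), *TJP3* (-1.52), *MARVELD3* (-1.15) and *PARD6B* (-1.11). None of the 55 met the naming rule, a called change of at least 1 on the log2 scale at a mean count of at least 100, for the knockout response or for the genotypes in DMSO.

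**Figure D4:**
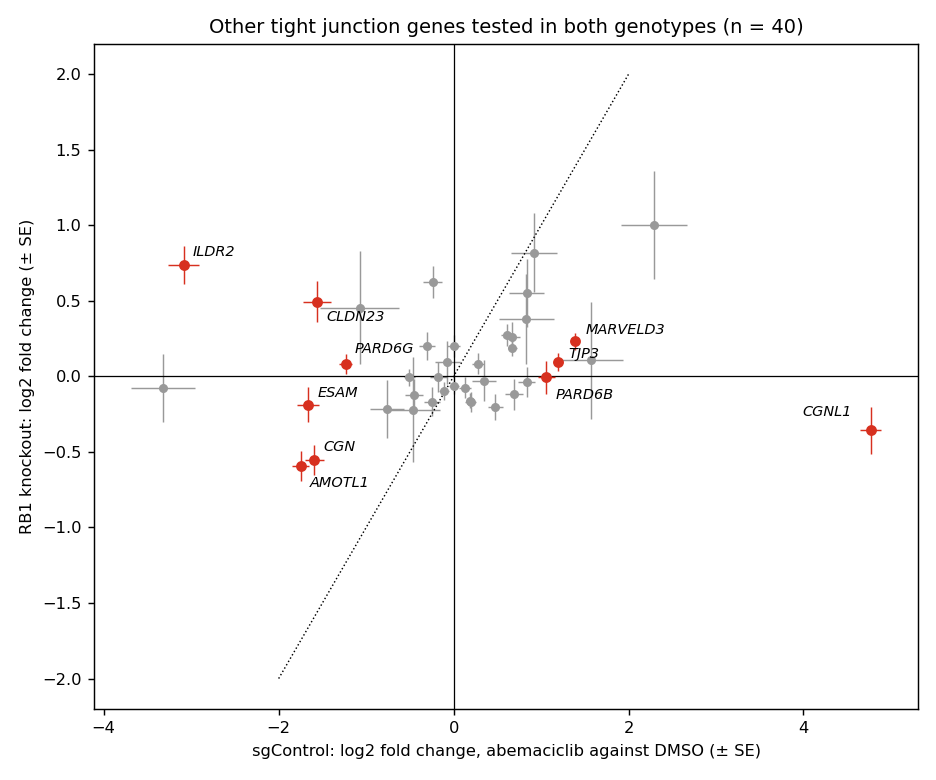
Log2 fold change of the 40 other tight junction genes tested in both genotypes, sgControl on the x axis and *RB1* knockout on the y axis, each with its SE; the dotted line marks equal responses and named genes are red. *CGNL1* lies at 4.77 and -0.36, *ILDR2* at -3.09 and 0.74.

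Neighbouring junctions were counted in the same way, against 49.8% of all genes called with *RB1* intact (median 0.01) and 30.0% without it (median 0.02). Of the 9 adherens junction genes, 3 were higher and 3 lower after abemaciclib with *RB1* intact, and 0 and 2 without it. *CDH1*, the gene of E-cadherin, did not pass in either (0.04 and 0.04, adjusted p = 0.6 in both). Of 9 desmosome genes tested, 2 rose and 6 fell with *RB1* intact, with a median of -0.40, while 4 rose and 0 fell in knockout cells, with a median of 0.19. *DSC2*, *DSG2*, *PKP2* and *PERP* each fell in the first and rose in the second, the signs seen in *OCLN*. *DSC2*, a desmosomal cadherin, went from 1044.7 to 361.8 (-1.53) and from 1175.5 to 1690.9 (0.52).

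Of 19 transcription factors known to act on junction genes, 14 could be tested in sgControl cells, where 5 rose and 4 fell, and 12 in knockout cells, where 4 rose and 1 fell, beside 49.8% and 30.0% of all genes called. *SNAI1*, a repressor of *CDH1* and claudins, rose from 40.6 to 169.9 (2.05, adjusted p = 3.7e-18) and from 42.5 to 73.4 (0.79, adjusted p = 0.0095). In sgControl cells *ZEB1* went the other way at low counts, from 13.9 to 3.4 (-2.02, adjusted p = 0.0040). *GRHL3*, a grainyhead factor of epithelial barriers, fell from 146.5 to 68.4 (-1.10) and rose from 234.7 to 363.7 (0.64, adjusted p = 8.8e-06). Its relatives were split in sgControl cells. *GRHL1* fell from 808.4 to 544.1 (-0.58, adjusted p = 4.9e-09) and the more abundant *GRHL2* rose from 5112.2 to 6304.9 (0.30, adjusted p = 0.0037). In knockout cells *GRHL1* fell as well, from 948.7 to 718.3 (-0.40, adjusted p = 0.000185), and *GRHL2* had means of 5631.6 and 5175.8. Of the gut factors in the list, *CDX1* had no count, and *CDX2*, *HNF4A* and *GATA4* had a mean of at most 1.7 in each group. *VDR*, the vitamin D receptor, rose from 2709.6 to 3742.1 in sgControl cells (0.47). Their part in the level of *CLDN2* was not tested.

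The genes whose pattern over the 12 libraries was most like that of *CLDN2* were ranked by the root mean square difference of log2(normalized count + 1) centred on each gene's mean, over 11884 genes with a mean of at least 100. They were *CYP4B1* (0.88), *PGLYRP2* (0.94), *PDZK1* (0.96), *A2M* (1.15) and *BPIFB1* (1.16), where the spread of *CLDN2* itself about its mean was 3.92. *CYP4B1*, a cytochrome P450 gene, had means of 284.2 and 25634.1 in sgControl cells and 141.3 and 127.9 in knockout cells. *PDZK1*, a PDZ scaffold gene, had 1173.8 and 59862.8 against 245.9 and 531.5. *PGLYRP2*, of a peptidoglycan-recognition protein, had 15.2 and 1776.1 against 1.1 and 7.7. *BPIFB1*, of a secreted airway protein, had 351.6 and 19322.3 against 213.1 and 82.6, and *A2M*, of a protease inhibitor, 36.5 and 1247.2 against 11.4 and 6.1. All 5 were far higher in the sgControl abemaciclib libraries than in the other groups, which is the pattern they were picked for. *PGLYRP2* and *A2M* reached a mean of 100 only through those libraries. *PDZK1* was not low elsewhere, and its knockout libraries held 228.5 to 256.8 in DMSO and 488.5 to 567.4 in abemaciclib.

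**Figure D5:**
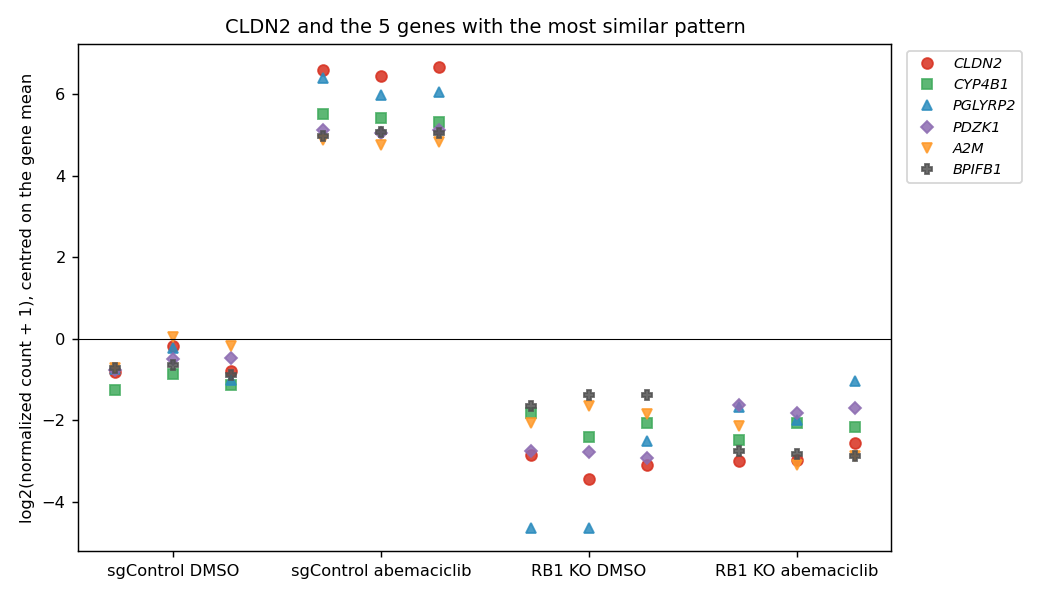
Log2(normalized count + 1), centred on the gene's mean, of *CLDN2* and the 5 genes with the smallest root mean square difference from it, in the 3 libraries of each group. All 6 genes stand high in sgControl cells in abemaciclib, and *CLDN2* is lower in both knockout groups than in sgControl cells in DMSO.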

How the data were processed

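Gene expression was measured by RNA sequencing in 12 libraries. The deposited values are raw read counts per gene. The authors trimmed reads with BBDuk, aligned them to hg38 with STAR 2.7.5b and counted them with featureCounts 2.0.1. They were neither normalized nor pooled. The use of strand and the treatment of reads that align to several places are not given in the sources used here, so overlapping genes and copies may share reads. The labels name a directional whole-transcript kit, the study's general methods a 3′ kit.

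The table had 60656 rows. The 44 rows with no gene name were left out and held 0% of the counts. Of the 60612 rows used, 28342 had no count. Groups came from the sample titles. One DESeq2 1.42.0 model (R 4.3.3) with a term for group and median-of-ratios factors was fitted to all 12 libraries. Two-sided Wald p-values for 5 contrasts were adjusted by Benjamini-Hochberg over all genes left by independent filtering, with a threshold of 0.05. Alternatives were edgeR 4.0.16 (quasi-likelihood), total-count scaling, other filters, a replicate block, only the groups compared, and each library left out. The tests were checked on simulated data. The members, gene lists and tests were chosen with earlier results of these data known. Named genes are all members, up to 5 other tight junction genes per direction and contrast with an adjusted p under 0.05, an absolute log2 fold change of at least 1 and a mean count of at least 100, the 5 genes most like *CLDN2*, overlapping and neighbouring genes, and *RB1*. Genes of neighbouring junctions, transcription factors and cell types were named after their values were seen.

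What libraries with the same replicate number share is not stated. In abemaciclib, same-numbered sgControl and knockout libraries deviated together in genes with a mean of at least 100 (correlations 0.15, 0.259 and 0.112), but not in genes with a mean of at least 10 (0.0449, 0.0572 and 0.0168), and elsewhere at least 1 pair was below 0.1. Intervals cover the spread between libraries only. Positions are from GENCODE 44 and promoter windows from RefSeq (GRCh38.p14), 1-based.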

Additional observations from a re-analysis of the deposited data

Results flagged for a closer look

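The response to abemaciclib differed between *RB1*-knockout and sgControl cells, by the test of the interaction in the DESeq2 model, in the following tight junction genes, given as the knockout response minus the sgControl response on the log2 scale. Among the members the difference was -0.79 for *CLDN1*, 0.47 for *CLDN4*, 0.52 for *CLDN7*, -0.35 for *CLDN12*, 1.42 for *OCLN* and -0.30 for *F11R*. For *OCLN*, *CLDN4* and *CLDN7* the responses were called in opposite directions in the 2 genotypes, though the knockout call of *CLDN7* was lost without any 1 of the 6 knockout libraries and that of *CLDN4* without knockout DMSO replicate 3. Among the other named genes it was 3.83 for *ILDR2*, 2.06 for *CLDN23*, 1.47 for *ESAM*, 1.32 for *PARD6G*, 1.16 for *AMOTL1* and 1.04 for *CGN*. It was -5.12 for *CGNL1*, -1.15 for *MARVELD3*, -1.10 for *TJP3* and -1.07 for *PARD6B*.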

How the results depend on the processing

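Of 1458 recomputed values of 82 fold changes of single genes, 1417 kept their direction and their side of the threshold, 23 lost the call, 8 gained it and 10 changed sign. For *CLDN2* in the sgControl response, the interaction and the genotypes in abemaciclib no threshold was used. Those values counted as kept where the direction held and the shift was below the spread between libraries. The sign changes were of fold changes that had not passed the test. *CLDN3* in the interaction was 0.11 with total-count scaling. With a library left out, *CLDN3* in the interaction ranged from -0.14 to 0.096, *TJP1* from -0.31 to 0.030 in the sgControl response, from -0.055 to 0.033 in the knockout response and from -0.036 to 0.30 in the interaction, *PARD6B* from -0.088 to 0.11 in the knockout response and *F11R* from -0.0099 to 0.11 between genotypes in DMSO. With total-count scaling *CLDN12* and *F11R* lost the interaction (-0.22 and -0.17) and *CLDN7* gained the call between genotypes in DMSO (-0.17). Without independent filtering *CLDN7* lost the knockout response (adjusted p = 0.071). The number of members called ranged, with a library left out, over 7 to 8 in the sgControl response and 2 to 5 in the knockout response. It ranged over 6 to 7 in the interaction and 6 to 8 between genotypes in abemaciclib. The recomputed count between genotypes in DMSO held *CLDN2* and is not given. For the other tight junction genes the number was 29 to 35 in the sgControl response, 10 to 19 in the knockout response and 23 to 29 in the interaction. Between genotypes it was 19 to 23 in DMSO and 29 to 33 in abemaciclib. Total-count scaling moved the median gene by -0.13 in the sgControl response, 0.14 in the interaction and 0.11 between genotypes in abemaciclib, and called 4532 genes higher and 6779 lower, 5467 and 3098, and 6995 and 4820. The cause was not tested. With the longest transcript as the length, 0 places in the order of levels changed in sgControl cells in DMSO, 2 in sgControl cells in abemaciclib, 3 in knockout cells in DMSO and 2 in knockout cells in abemaciclib. Of the 5 genes most like *CLDN2*, 3 remained with a mean count of at least 10 and 4 with a pseudocount of 10.

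With the replicate number as a block, the members called were 7 in the sgControl response and 5 in the knockout response. They were 6 in the interaction and 7 between genotypes in abemaciclib, where *CLDN1* was 0.17 (adjusted p = 0.0588). The block changed no other call of the named fold changes. *CLDN2* in knockout cells rests on 8 to 17 counts a library, which limits its response there.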
